A study of Mus musculus with 48 samples.

Results

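The maturation of the cortex with a single intact *Chd8* allele was described by comparing *Chd8* V986*/+ mice at 1 month with *Chd8* V986*/+ embryos at E14.5, across all genes. The members are the 12 of 48 samples that the labels give as heterozygous at these ages, 6 at E14.5 and 6 at 1 month. The allele carries tandem stop codons inserted at V986 and E987 with CRISPR/Cas9 on the C57BL/6J background, descends from 1 male founder backcrossed to C57BL/6J, and is a germline allele, so that all cells of the animal are heterozygous. The animals were male, and polyA RNA came from the dissected cortex of a single hemisphere. The labels name a TruSeq kit for the libraries, whereas the methods of the study name KAPA stranded reagents. WT mice of the same strain, ages and number served for the comparison of genotypes.

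At E14.5 the cortical wall is built of dividing radial glia and intermediate progenitors and of young neurons that migrate to the cortical plate. Synapse formation, myelination and most astrocyte production follow around and after birth. CHD8 is a chromatin remodeler of the chromodomain helicase family that binds many active promoters, and loss of a single copy is linked to autism and macrocephaly.

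Expression is given as deposited by the authors, as variance-stabilizing transformation (VST) values on a log2 scale, in which 1 unit approaches 2-fold where expression is high and understates the change near the floor of 2.14, the most frequent value of the table. Of 24444 genes, 17227 had a mean over the 12 heterozygous mice at least 0.5 above the floor and were tested with limma. A gene was called when its Benjamini-Hochberg adjusted p value (adjp) was below 0.1, and called past 2-fold when the same threshold was met in limma's test against a log2 change of 1. On simulated data, false calls without the 2-fold minimum exceeded the nominal share. The unchanged genes there had no true change, far from the 2-fold limit, so the simulation could not assess false calls past 2-fold. The read depth of single genes is unknown, so the spread between 6 mice is the precision of each value.

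Most of the transcriptome differed between the ages. Of the 17227 tested genes, 14840 (86.1%) were called, 7535 (43.7%) higher and 7305 (42.4%) lower at 1 month. Past 2-fold, 5767 genes (33.5%) were called, 3293 (19.1%) higher and 2474 (14.4%) lower, and these shares are the background against which each gene list below is read. The 6 mice of an age did not overlap those of the other age in 11961 genes (69.4%). The median change over all tested genes was 0.02 and the median absolute change was 0.81 log2 units, against a median SD between mice of 0.17 at E14.5 and 0.12 at 1 month. Age thus moved a typical gene further than animals of the same age differed. With quantile normalization between samples, the median change over all tested genes was −0.11, the only scaling that moved it by over 0.1, and the direction of small changes depends on the scaling, also of some larger than that shift. The balance of directions turned as well, to 6803 genes called higher and 8018 lower with quantile normalization. It turned to 7139 and 7679 when samples were centred on the housekeeping list. With a stricter filter, a mean at least 1.5 above the floor, 6805 were called higher and 6938 lower.

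**Figure D1:**
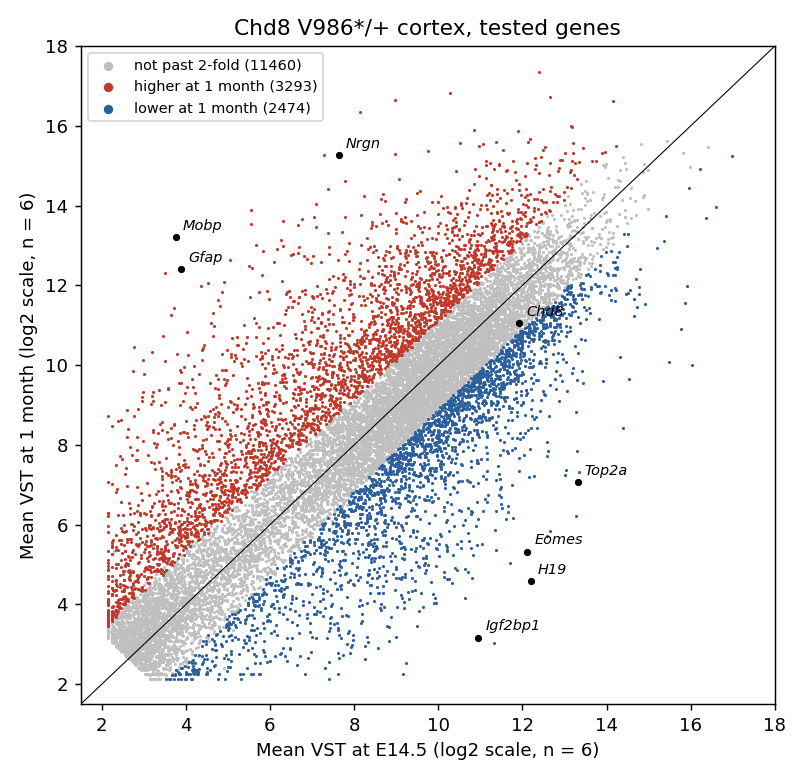
Mean VST expression (log2 scale) at E14.5, horizontal axis, and at 1 month, vertical axis, of the tested genes in *Chd8* V986*/+ cortex, 6 mice per age. Red and blue points mark the 3293 and 2474 genes called past 2-fold, the line marks equal levels, and *Chd8* lies just below it.

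The tissue was checked against 12 genes that identify cortex. At 1 month the most abundant was *Slc17a7*, the vesicular glutamate transporter of mature cortical projection neurons, at 15.33, 15.38 and 15.42 (lowest, median and highest mouse), and it stood at 9.57, 9.71 and 10.03 at E14.5. All older mice lay above all embryos. None of the 12 genes was near the floor at either age. Of these cortex genes, 3 were called past 2-fold higher and 6 lower, with a median change of −1.16, while their mean change was 0.36. The list therefore held both embryonic and adult neuronal genes, and its direction depends on the summary used.

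Markers of neighboring tissue were detected as well. Of 38 genes that mark the spinal cord, hindbrain and midbrain, 22 passed the filter, and their mean level per mouse was 5.02, 5.79 and 6.84 (lowest, median, highest) at E14.5 and 3.25, 3.51 and 3.78 at 1 month. Embryo 3 held the highest value at E14.5. The most abundant of these markers was *Gbx2*, with a mean of 8.84, at E14.5 and *Gata2*, with a mean of 7.03, at 1 month, and 16 and 19 of the 38 markers, most of them Hox genes, lay within 0.5 of the floor at the respective ages. Of the 22 tested markers, 11 were called past 2-fold lower and 1 higher, with a median of −1.86, which was −0.23 over all 38. The higher gene was *Tph2*, the serotonin-synthesizing enzyme of the brainstem, at 3.72, 3.95 and 4.88 at E14.5 and 5.38, 5.55 and 5.82 at 1 month (change 1.49, limma adjp past 2-fold = 0.0262). The ages did not overlap, but *Tph2* lost its call past 2-fold with quantile normalization (1.16) and in a joint fit of all 48 samples. Markers of thalamus and hypothalamus were lower too, with 10 of 18 called lower and 1 higher past 2-fold, a median of −1.87 and means per mouse of 6.79 to 7.27 at E14.5 and 4.30 to 5.32 at 1 month. *Tcf7l2*, which is also a Wnt effector, was the most abundant at E14.5, with a mean of 12.59. The part of dissection borders in the changes below was not tested. In these bulk samples, fewer cells of a type and less RNA per cell cannot be told apart.

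Several libraries stood apart from the others of their age. Embryo 1 had lower values of long transcripts, with a median deviation from its age mean of −0.31 over 1785 genes with a longest transcript above 6 kb and of 0.19 over 2589 genes below 1.5 kb, and WT embryo 1 deviated by −0.23 and 0.13 in the same classes. The CHD, BAF and autism risk lists were lowest in embryo 1. Mouse 3 at 1 month was lowest in vessel, mural and choroid plexus markers and highest in ribosomal protein and oxidative phosphorylation genes. The transcript length classes were added after these deviations were seen. Without both of these mice, 3321 genes were called higher and 2524 lower past 2-fold, against 3293 and 2474 with them, and 5643 of the 5767 genes called past 2-fold were called in both fits.

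*Chd8* (chromosome 14, 52817826 to 52857466, minus strand, mm9) stood at 11.60, 11.98 and 12.03 (lowest, median, highest) at E14.5 and 10.94, 11.05 and 11.11 at 1 month. All 6 older mice lay below all embryos, and the lowest embryo was embryo 1. *Chd8* expression fell by 0.87 (standard error 0.067, limma adjp = 3.00e-09) and was not called past 2-fold. Without embryo 1 it fell by 0.93. In WT mice *Chd8* fell by 0.83, and the difference of the 2 changes was −0.04 (standard error 0.097). The age-related decrease was therefore not detectably different with a single intact allele.

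The other CHD genes moved in several directions. *Chd7*, a remodeler of enhancers mutated in CHARGE syndrome, ranged from 11.22 to 12.39 at E14.5 and from 8.81 to 9.20 at 1 month and fell by 2.95. *Chd4*, the core ATPase of the NuRD complex, fell by 1.49 from a median of 13.89, and *Chd1*, a reader of H3K4 methylation, fell by 1.36. *Chd5*, the NuRD member of neurons, ranged from 11.17 to 11.92 at E14.5 and from 13.15 to 13.30 at 1 month and rose by 1.59. These 4 genes were called past 2-fold and their mice did not overlap between ages. *Chd2*, *Chd6* and *Chd9* fell by 0.80, 0.64 and 0.65 and were called without passing 2-fold. *Chd3*, the most abundant of the family in VST terms, was at 13.62 to 14.54 and at 14.40 to 14.50, overlapped between ages and was not called (change 0.19, limma adjp = 0.145). Without embryo 1, the lowest, the change was 0.06 and not called. Without embryo 2 or embryo 3 it was called, at 0.25 and 0.24, in a joint fit of all 48 samples it was called at 0.19, when samples were centred on the median gene it was called at 0.22, and with quantile normalization it was −0.43. *Chd1l* rose by 0.20 (limma adjp = 0.0548) and overlapped between ages. Its call was lost when samples were centred on the housekeeping list (0.13), without embryo 2 (0.18), without embryo 3 (0.18), without mouse 1 at 1 month (0.14) or without mouse 3 at 1 month (0.16). The 10 CHD genes had a median change of −0.73, with 1 called higher and 3 lower past 2-fold, against 19.1% and 14.4% of all tested genes.

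**Figure D2:**
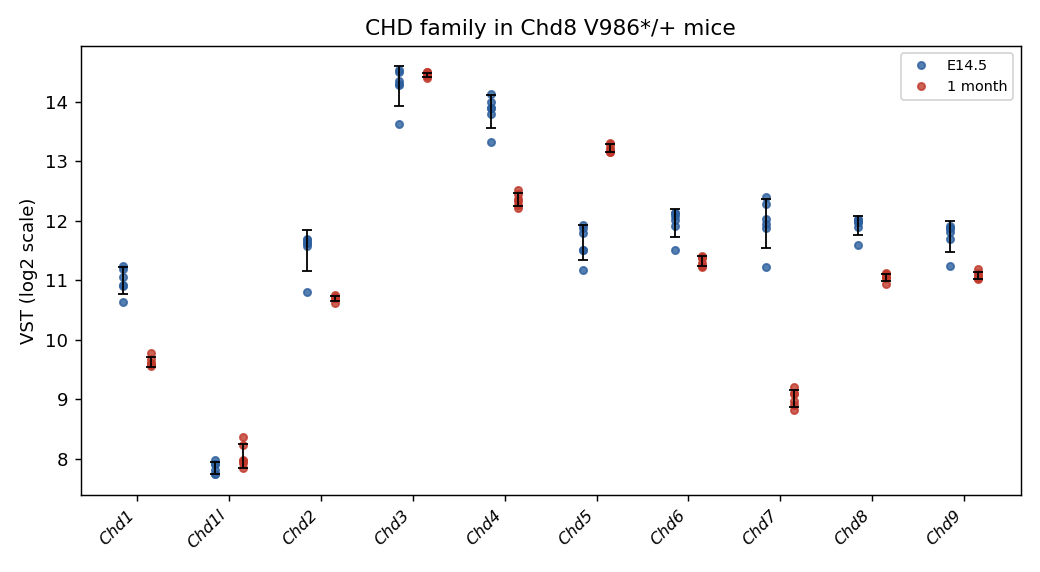
VST expression (log2 scale) of the 10 CHD genes in each *Chd8* V986*/+ mouse, blue at E14.5 and red at 1 month, with black bars for the mean and SD of 6 mice. *Chd5* rose, *Chd7* and *Chd4* fell most clearly, and *Chd3* overlapped between ages, with its direction turned by quantile normalization.

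Genes of cell division were the most uniformly lower group. Of 47 genes of mitosis and the kinetochore, 45 were called lower past 2-fold and 0 higher (limma), with a median change of −4.74. Their mean per mouse was 10.02, 10.16 and 10.52 (lowest, median, highest) at E14.5 and 5.71, 5.78 and 5.87 at 1 month. The gap between the ages was many times the spread within either. *Top2a*, the topoisomerase that untangles replicated chromosomes, ranged from 13.11 to 13.63 and then from 6.94 to 7.24 and fell by 6.25, the largest decrease of the list. *Aurkb*, the kinase that corrects microtubule attachment, fell by 5.92 from a median of 9.99 to one of 4.06. Of 38 genes of S phase and DNA replication, 35 were called lower past 2-fold and 0 higher, with a median of −3.31. *Uhrf1*, which carries DNA methylation through replication, fell by 6.00, and *Rrm2*, the ribonucleotide reductase subunit that supplies deoxynucleotides, fell by 5.34. For both genes all embryos lay above all older mice. *Ccne1*, with the highest change of the list at 0.35, did not pass 2-fold. No overlap of ages was seen in either list mean.

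Promoters of the division genes are shown because the genes move together. RefSeq promoters (GRCm38.p6) were matched for 41 of the 47 mitosis genes and 32 of the 38 S phase genes, and were searched on either strand for letters that known cell cycle factors bind, TTTGAA (the core of the cell cycle homology region), CCAAT (bound by NF-Y) and TTTCCCGC or TTTGGCGC (forms of the E2F site), besides TGACGTCA and the NRF1 palindrome. The search was added after the values were seen, with 5 sets of letters, 9 sets of genes and 3 windows tried in turn, so the shares are descriptions. From 250 bases before to 50 after the start, TTTGAA was in 25 of 41 mitosis promoters (61.0%), against 18.1% of all 27025 promoters of the table. Before the start alone it was in 11 (26.8%), against 16.3%. From 250 before to 30 after, the window taken after the second gave fewer matches, it was in 21 (51.2%), against 17.4%. The share of TTTGAA thus depends strongly on whether bases after the start are included. CCAAT was in 29 (70.7%), 27 (65.9%) and 28 (68.3%) of the same promoters in the same windows, against 37.9%, 34.5% and 36.6% of all. In S phase promoters CCAAT was also common, in 19 of 32 (59.4%) in each window, and TTTGAA was in 4 (12.5%). The E2F letters were in 10 (31.3%), 5 (15.6%) and 7 (21.9%) of 32 S phase promoters, against 1.63%, 1.35% and 1.52% of all, and in 0 mitosis promoters in each window. Among the 78.9% of tested genes with a promoter the shares were higher, at 2.72%, 2.27% and 2.54%. For TTTGAA they were lower, at 12.4%, 11.05% and 11.9%, close to the S phase share, and for CCAAT they were 38.1%, 35.7% and 37.2%, so the contrasts depend on the background. In the last window TGACGTCA was in 2 mitosis and 1 S phase promoters, against 1.83% of all and 2.93% of those of tested genes. The NRF1 palindrome was in 0 of either, against 0.914% and 1.66%. The 4 promoters below, from 250 bases before to 30 after the start, were picked because they hold these letters and because their genes fell furthest among those that do, and *Ube2c*, *Mki67* and *Mcm3* were named only after their values were seen. Capitals mark the searched letters on either strand.
Top2a (chr11:99024160-99024439, minus strand): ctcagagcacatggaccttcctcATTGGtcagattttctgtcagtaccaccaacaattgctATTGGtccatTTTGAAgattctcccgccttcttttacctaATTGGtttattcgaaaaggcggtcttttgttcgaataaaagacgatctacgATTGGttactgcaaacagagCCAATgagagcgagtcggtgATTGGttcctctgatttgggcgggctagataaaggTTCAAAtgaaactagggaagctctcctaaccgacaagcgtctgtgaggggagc
Ube2c (chr2:164769679-164769958, plus strand): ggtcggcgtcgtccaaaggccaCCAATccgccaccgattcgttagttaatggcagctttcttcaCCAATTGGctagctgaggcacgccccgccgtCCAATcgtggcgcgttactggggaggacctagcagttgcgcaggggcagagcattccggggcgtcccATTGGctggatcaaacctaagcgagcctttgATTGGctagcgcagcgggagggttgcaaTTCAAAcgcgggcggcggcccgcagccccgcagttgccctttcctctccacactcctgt
Mki67 (chr7:135716350-135716629, minus strand): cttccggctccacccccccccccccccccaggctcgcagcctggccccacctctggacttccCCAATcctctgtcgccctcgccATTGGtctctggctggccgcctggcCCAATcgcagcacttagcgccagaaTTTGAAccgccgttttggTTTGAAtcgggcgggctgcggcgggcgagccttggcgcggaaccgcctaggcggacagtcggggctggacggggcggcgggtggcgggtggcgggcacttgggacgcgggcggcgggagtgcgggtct
Mcm3 (chr1:20820283-20820562, minus strand): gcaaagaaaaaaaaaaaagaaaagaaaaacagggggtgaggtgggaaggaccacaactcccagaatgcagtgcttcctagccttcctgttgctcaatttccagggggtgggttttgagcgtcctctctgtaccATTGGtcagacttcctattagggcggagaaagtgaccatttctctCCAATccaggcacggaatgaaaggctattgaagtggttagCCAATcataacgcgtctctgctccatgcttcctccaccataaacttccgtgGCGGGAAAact
*Ube2c*, the enzyme that tags mitotic proteins for destruction, fell by 5.89, *Mki67*, which coats mitotic chromosomes, by 5.76, and *Mcm3*, a subunit of the replicative helicase, by 4.70. In the *Top2a* and *Ube2c* promoters TTCAAA, the other strand of TTTGAA, begins at −23 and −29 from the start. A match of letters shows no binding.

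Progenitor genes fell with division. Of 26 radial glia and stem cell genes, 19 were called lower and 2 higher past 2-fold, with a median of −2.31, and the list mean was 10.86 to 11.26 per embryo and 8.76 to 8.99 per older mouse. *Sox3*, a factor that holds cells undifferentiated, fell by 4.93, and *Hmga2*, a chromatin protein of fetal stem cells, fell by 5.65 from a median of 8.57 to one of 2.85, close to the floor. The exceptions were *Slc1a3*, a glutamate transporter shared by radial glia and astrocytes, which rose by 2.48, and *Hopx*, which rose by 2.43. Both are also expressed by mature astrocytes. Of 14 intermediate progenitor genes, 11 were called lower and 1 higher past 2-fold, with a median of −3.25. *Eomes*, the factor that defines these cells, was at 11.57, 12.13 and 12.67 in embryos and at 3.67, 5.43 and 6.87 at 1 month, a wide range among the older mice, and fell by 6.78. *Neurog2*, the proneural factor upstream of it, fell by 6.66. The higher gene was *Tac2*, a neuropeptide precursor, with a change of 2.75. The ages did not overlap for any of the 3.

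Young-neuron genes and fetal growth genes followed. Of 30 genes of migrating and immature neurons, 19 were called lower and 0 higher past 2-fold (limma), with a median of −1.92. *Igfbpl1*, expressed in newborn neurons, was at 13.06 to 13.34 and then at 5.75 to 6.90, a decrease of 7.05, and *Draxin*, a guidance protein of commissural axons, fell by 6.86. Of 23 genes of developmental timing and fetal growth, 16 were called lower and 1 higher past 2-fold, with a median of −2.31. *Igf2bp1*, an RNA-binding protein of fetal tissue on chromosome 11 (95818477 to 95867254, mm9), was at 10.60, 11.004 and 11.32 in embryos and at 2.74, 3.001 and 3.76 at 1 month. It fell by 7.78 (limma adjp past 2-fold = 1.47e-14), the largest decrease of the list. *H19*, an imprinted growth-restraining RNA, fell by 7.60. *Lin28a* and *Afp* were within 0.5 of the floor at 1 month. Against this direction *Meg3*, an imprinted RNA of neurons, rose by 2.30 from a median of 13.12.

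Genes of the synapse were mostly higher. Of 36 synaptic vesicle and release genes, 32 were called higher and 1 lower past 2-fold, with a median change of 2.93, and the list mean was 9.90, 10.08 and 10.26 (lowest, median, highest) in embryos and 12.84, 12.92 and 13.01 at 1 month. *Slc17a7* rose by 5.62 while *Slc17a6*, the transporter used earlier and in subcortical neurons, fell by 1.24. These vesicular glutamate transporters thus moved in opposite directions. *Cplx3*, a complexin that clamps release, was at 2.17 to 3.25 in embryos, where embryo 1 was at the floor, and at 8.91 to 9.42 at 1 month. Of 39 postsynaptic genes, 34 were called higher and 1 lower past 2-fold, with a median of 2.43. *Camk2a*, the kinase of synaptic plasticity, was at 10.06 to 10.42 and then at 16.76 to 16.91, a change of 6.53, and *Nrgn*, which binds calmodulin in spines, rose by 7.63. *Homer3*, a scaffold of glutamate receptors, fell by 1.505. All 4 of the last named genes had no overlap between ages.

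Receptor and channel subunits changed unequally within pairs of paralogs. *Grin2a*, the NMDA receptor subunit of mature synapses, was at 3.19, 4.65 and 4.92 in embryos and at 10.25, 10.54 and 10.66 at 1 month, and *Grin2b*, the early subunit, was at 9.02, 10.08 and 10.64 and then at 11.98, 12.27 and 12.40. *Grin2a* rose by 6.07 and *Grin2b* by 2.14, and embryo 1 was lowest for *Grin2a*. Of 23 genes of GABA synthesis, receptors and chloride transport, 19 were called higher and 0 lower past 2-fold (limma), with a median of 2.29. *Gabra2*, a receptor subunit already present in embryos, rose by 1.76, and *Gabrd*, the subunit of receptors outside the synapse, by 5.98. *Slc12a5*, which exports chloride and makes GABA inhibitory, rose by 3.54 to a median of 14.07, and *Slc12a2*, which imports chloride, rose by 0.75 without passing 2-fold. The larger increase was thus in the exporter. Among 13 tested voltage-gated sodium channel genes, 7 were called higher and 1 lower past 2-fold, with a median of 3.29, which was 1.68 with the untested member and 2.24 as a mean of the 13. *Scn1a*, an adult pore subunit, rose by 4.02, while the embryonic *Scn3a* fell by 0.70 and was called without passing 2-fold. The accessory subunit *Scn4b* rose by 7.55, and *Scn9a*, a channel known from sensory neurons, fell by 2.74. *Scn4a*, the muscle channel, stayed within 0.5 of the floor at both ages and was not tested. Of 38 potassium channel genes, 31 were called higher and 0 lower past 2-fold (limma), with a median of 3.25. *Kcnj4*, an inward rectifier, rose by 6.87, and *Kcnk4*, a leak channel, ranged from 2.13 to 3.37 in embryos and from 8.03 to 8.36 at 1 month.

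**Figure D3:**
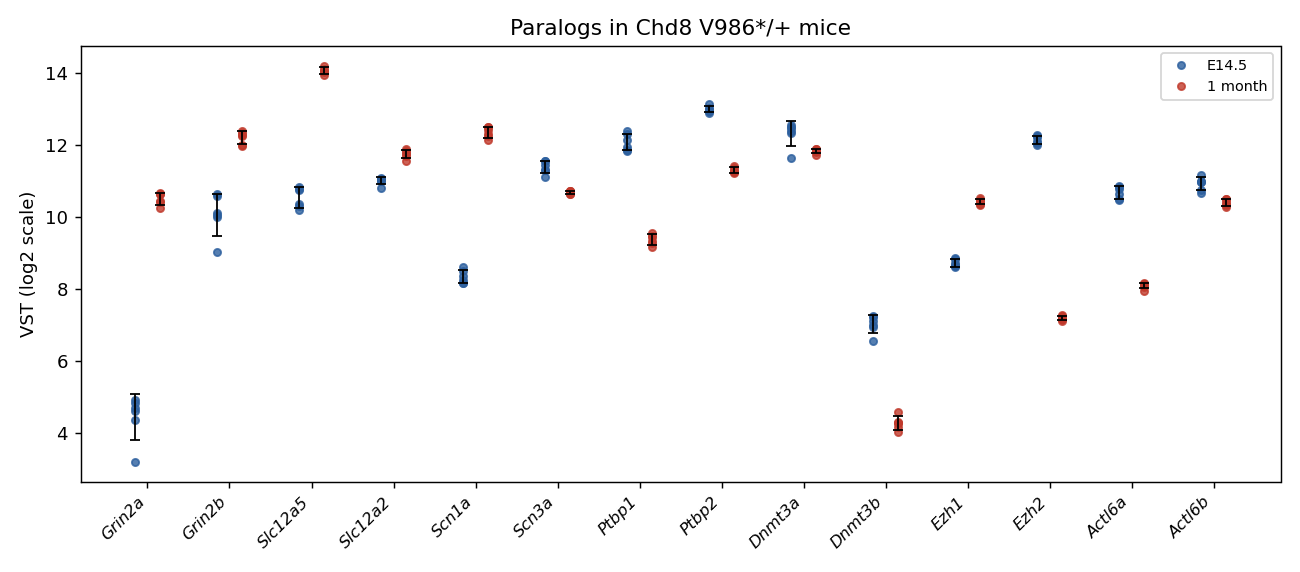
VST expression (log2 scale) of 7 pairs of related genes in each *Chd8* V986*/+ mouse, blue at E14.5 and red at 1 month, with black bars for the mean and SD of 6 mice. *Grin2a* and *Slc12a5* rose more than their partners, *Scn1a* and *Ezh1* rose while their partners fell, and *Dnmt3a* overlapped between ages.

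Cytoskeleton genes moved in both directions. Of 32 genes of neurofilaments, tubulins and microtubule proteins, 9 were called higher and 9 lower past 2-fold, with a median of 0.05, which was −0.30 with quantile normalization and −0.01 when samples were centred on the housekeeping list. *Dcx*, which stabilizes microtubules in migrating neurons, was at 15.11 to 15.76 and then at 9.76 to 10.34 and fell by 5.40, and the tubulin *Tubb2b* fell by 4.29. *Tuba4a* rose by 5.91 and *Tppp*, a tubulin-polymerizing protein of oligodendrocytes, by 5.5999. The mean change was 0.22, and the list mean was 11.90 to 12.00 in embryos and 12.07 to 12.23 at 1 month, without overlap. Immediate early genes, which neuronal activity induces, were higher, with 15 of 20 called higher and 1 lower past 2-fold and a median of 3.89. *Egr1* was at 6.37, 6.80 and 7.13 in embryos and at 13.35, 13.69 and 13.88 at 1 month, and *Egr4* rose by 7.13. *Btg2*, which also marks progenitors that make neurons, fell by 2.28.

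Layer and interneuron genes did not move as a block. Of 25 layer identity genes, 4 were called higher and 10 lower past 2-fold, with a median of −0.80. *Crym* and *Mef2c* rose by 3.29 and 2.89, whereas *Lhx5* and *Fezf1* fell by 5.82 and 5.13 to means of 3.18 in both cases. *Lhx5* marks Cajal-Retzius cells and their sources at the cortical hem. Of 29 interneuron genes, 13 were called higher and 6 lower past 2-fold, with a median of 0.77, which was 0.60 with quantile normalization, and a mean change of 1.26. *Vip*, a neuropeptide of a late-maturing class, was at 2.16, 2.81 and 2.98 in embryos and at 9.61, 9.87 and 10.06 at 1 month, and *Lamp5* rose by 7.18. The factors that specify these cells in the ganglionic eminences fell, *Nkx2-1* by 5.57 and *Dlx2* by 4.17. Ganglionic eminence and striatum markers, a tissue next to the dissected cortex, gave 10 of 27 higher and 16 lower past 2-fold with a median of −2.37 and a mean change of −0.76. *Penk* and *Ppp1r1b*, of striatal projection neurons and also of cortex, rose by 5.04 and 3.89, and *Isl1* fell by 4.50. The list mean was 8.82 to 8.91 in embryos and 7.89 to 8.26 at 1 month, *Meis2* was the most abundant at E14.5 with a mean of 13.06, none of the markers was near the floor, and the part of this tissue in the result was not tested.

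Glial genes held the largest increases. Of 26 myelin and oligodendrocyte genes, 25 were called higher and 0 lower past 2-fold (limma), with a median of 4.98. Their mean per mouse was 5.89, 5.98 and 6.06 in embryos and 11.03, 11.30 and 11.36 at 1 month. Mouse 1 was the lowest at 1 month and still far above every embryo. *Mobp*, a protein of compact myelin on chromosome 9 (120058860 to 120090602, mm9), was at 3.30, 3.76 and 4.25 and then at 12.87, 13.28 and 13.39, an increase of 9.46 (limma adjp past 2-fold = 1.48e-17) that was the largest among genes above the floor in all 12 mice. *Mal* and *Mbp*, which also build the sheath, rose by 7.99 and 7.69. *Mbp* was already at 8.83 to 9.06 in embryos. Of 15 oligodendrocyte precursor genes, 10 were called higher and 1 lower past 2-fold, with a median of 1.71. *Enpp6*, of newly formed oligodendrocytes, rose by 6.02 and *Vcan*, a matrix proteoglycan that is not specific to precursors, fell by 2.95. Of 32 astrocyte genes, 30 were called higher and 1 lower past 2-fold, with a median of 3.72. *Gfap*, the intermediate filament of astrocytes, was at 3.24, 3.85 and 4.53 and then at 12.11, 12.44 and 12.61, and *S100b*, a calcium-binding protein, rose by 7.62. *Sox9*, which also drives radial glia, fell by 1.58. In VST terms the most abundant astrocyte gene at 1 month was *Slc1a2*, with a mean of 17.35.

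Immune genes were higher on the whole, whereas vascular genes moved in both directions. Of 26 microglia and complement genes, 21 were called higher and 3 lower past 2-fold, with a median of 2.32. *Siglech* and *Itgam*, surface receptors of microglia, rose by 3.70 and 3.69, and *Mrc1*, a receptor of macrophages at the brain's borders, fell by 1.95 from a median of 9.01, with embryo 2 far below the other embryos at 7.49. *Sall1*, a microglial factor that progenitors also express, fell by 1.90. Of 24 tested genes of MHC class I and the interferon response, 12 were called higher and 0 lower past 2-fold (limma), with a median of 1.15, and *Ifi27* and *Ifit3* rose by 3.29 and 3.20. Endothelial genes had 6 of 26 (23.1%) higher and 3 (11.5%) lower past 2-fold, close to the 19.1% and 14.4% of all tested genes. Their median was 0.12 and their mean change 0.67. The list mean was 8.24 to 8.54 in embryos and 8.58 to 9.30 at 1 month, higher in every older mouse. *Ly6a* and *Ly6c1*, surface proteins of mature brain vessels, rose by 5.94 and 5.67, while *Kdr* and *Cdh5*, a growth factor receptor and a junction protein of all vessels, fell by 2.13 and 1.95. The list thus held members of both directions.

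Markers of other cells that the dissection could hold were given beside these results. Of 25 mural, fibroblast and meningeal genes, 4 were called higher and 9 lower past 2-fold, with a median of −1.22 and overlapping means per mouse, 8.66 to 9.68 in embryos and 7.74 to 8.96 at 1 month. *Col3a1*, a fibrillar collagen, fell by 5.06, and *Ptgds*, the most abundant at 1 month, rose by 5.01. *Zic1*, of the meninges and of medial and caudal brain, fell by 4.53 and *Myh11*, a smooth muscle myosin, rose by 2.58. Of 16 erythroid genes, 9 were called lower and 0 higher past 2-fold (limma), with a median of −1.49 and means of 7.43 to 8.48 in embryos and 5.54 to 6.25 at 1 month. The embryonic globin *Hbb-y* was the most abundant in embryos, with a mean of 11.31, and fell by 8.28 to a median of 2.85. *Hba-x*, *Hbb-bh1* and *Hemgn* were within 0.5 of the floor at 1 month. Of 16 choroid plexus and ependyma genes, 6 were called higher and 4 lower past 2-fold, with a median of −0.96, which was −0.57 without mouse 3 at 1 month, while the mean change was −0.0014. Their mean overlapped between ages, 6.77 to 7.11 in embryos and 5.65 to 7.97 at 1 month. *Ttr* was the most abundant at E14.5, with a mean of 13.05, *Ccdc153* and *Tmem212* were then near the floor, *Enpp2* and *Kl* rose by 3.43 and 3.41, and *Otx2* and *Kcne2* fell by 4.10 and 2.83. The part of these cells in the other results was not tested.

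Chromatin genes were lower on the whole. None of 28 BAF complex genes was called higher past 2-fold by limma and 13 were lower, with a median of −1.12 and list means of 11.45 to 11.69 in embryos and 10.51 to 10.57 at 1 month. *Smarce1* and *Actl6a*, the subunit of the progenitor complex, both fell by 2.59. *Actl6b*, which replaces *Actl6a* in neurons, was at 10.67, 10.97 and 11.16 and then at 10.28, 10.38 and 10.51 and fell by 0.53 without passing 2-fold, so that its level relative to *Actl6a* rose. Of 29 genes of DNA methylation and Polycomb, 3 were called higher and 15 lower past 2-fold, with a median of −1.26. *Ezh2*, the methyltransferase of dividing cells, fell by 4.96, from 11.99 to 12.28 down to 7.11 to 7.28, while its paralog *Ezh1* rose by 1.70. *Cbx7* rose by 3.29 and *Gadd45b*, linked to removal of methylation, by 2.30. *Dnmt3b* fell by 2.74, and *Dnmt3a*, the methyltransferase of neurons, by 0.48, with overlap between ages because embryo 1, at 11.65, lay below every older mouse.

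Among RNA-binding and splicing genes of neurons, 7 of 28 were called higher and 7 lower past 2-fold, with a median of −0.52, which was −0.91 with quantile normalization, and a mean change of −0.03. The list means overlapped between ages. *Ptbp1*, which represses neuronal exons, fell by 2.71 and *Ptbp2*, which replaces it in young neurons, by 1.69. *Cpeb1* and *Mbnl2*, which act on translation and on adult splicing, rose by 5.13 and 3.60, and *Msi1*, of stem cells, fell by 3.03. Cytosolic ribosomal protein genes were lower in a narrow band, with 36 of 76 called lower and 0 higher past 2-fold (limma), a median of −1.10 and changes from −2.27 for *Rplp0* to −0.07 for *Rps21*. Their mean was 11.94, 12.13 and 12.38 in embryos and 10.96, 11.004 and 11.22 at 1 month. Embryo 1 and mouse 3 were the highest of their ages. *Rps26* fell by 1.78. Nuclear-encoded genes of oxidative phosphorylation moved the other way and less, with 7 of 70 called higher and 0 lower past 2-fold (limma) and a median of 0.57. *Cox8a* and *Cox6c*, subunits of cytochrome oxidase, rose by 1.87 and 1.503.

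Of 25 genes of glycolysis and lactate, 13 were called higher and 1 lower past 2-fold, with a median of 1.14. *Eno2*, the enolase of neurons, rose by 4.82 and *Pfkp* by 3.76, while the hexokinase *Hk2* fell by 1.66. Cholesterol synthesis genes had 1 of 22 called higher and 0 lower past 2-fold (limma), with a median of −0.23 and a mean change of 0.01. The called gene was *Cyp46a1*, which removes cholesterol from neurons, with a change of 4.57. Genes of ER folding and the unfolded protein response had 2 of 24 higher and 0 lower past 2-fold (limma) and a median of 0.18, which turned to −0.10 with quantile normalization. The sensor *Atf6* rose by 1.70 and *Herpud1*, of ER-associated degradation, by 1.25, a call past 2-fold that was lost when samples were centred on the housekeeping list (1.18). Cytosolic heat shock chaperones had 9 of 28 higher and 4 lower past 2-fold and a median of 0.04, which was −0.40 with quantile normalization and −0.03 when centred on the housekeeping list, but a mean change of 0.44. The list mean was 10.80 to 10.99 in embryos and 11.26 to 11.43 at 1 month, without overlap. *Cryab*, of oligodendrocytes and astrocytes, and *Hspa2* rose by 5.38 and 3.57, and the chaperonin subunits *Cct3* and *Cct4* fell by 1.47 and 1.37.

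Of 31 Wnt and beta-catenin genes, 18 were called lower and 2 higher past 2-fold, with a median of −1.33. *Tcf7l2* and *Wnt8b*, of thalamus and cortical hem, fell by 4.88 and 4.59, *Dkk3* rose by 3.45, and *Lgr5* rose by 1.66, without passing 2-fold under quantile normalization (1.36). Of 18 genes of p53 and its targets, 4 were called higher and 5 lower past 2-fold, with a median of −0.15, which was −0.25 with quantile normalization and −0.35 as a mean. *Trp53* itself fell by 2.48 and *Gtse1*, a cell cycle gene, by 4.34, while *Phlda3* and *Zmat3* rose by 1.95 and 1.60. Of 48 autism risk genes, 11 were called higher and 9 lower past 2-fold, with a median of −0.37 and a mean of 0.03. *Shank3* and *Scn2a* at the synapse and axon rose by 3.32 and 3.29, and *Ptk7* and *Asxl3* fell by 2.66 and 2.58. The shares of this list were close to those of all genes, and its means per mouse overlapped between ages. Housekeeping reference genes had 6 of 28 higher and 5 lower past 2-fold with a median of 0.06, which turned to −0.06 with quantile normalization and to −0.01 with centring on the list's own mean. *Hprt* and *B2m* rose by 2.33 and 2.05, and *Rplp0* fell by 2.27 and *Eef1a1* fell by 1.72, so these single genes were no constant reference between the ages.

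**Figure D4:**
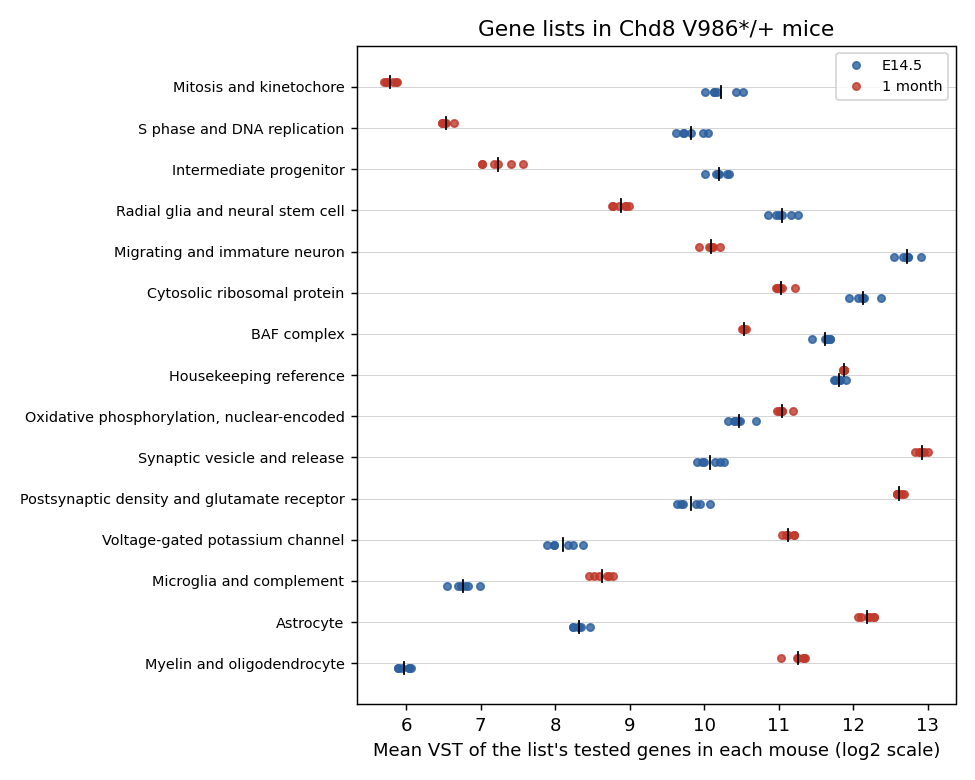
Mean VST expression (log2 scale) of the tested genes of 15 lists in each *Chd8* V986*/+ mouse, blue at E14.5 and red at 1 month, with a black line for the mean of 6 mice. The ages do not overlap in 14 of these lists, and the housekeeping list overlaps. The lists shown were picked from the 42, and the ages also overlap in some of the others, such as cholesterol synthesis and ER folding.

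Outside the lists, the genes with the largest changes above the floor included *Gpr37l1* and *Ntsr2*, receptors of astrocytes, which rose by 8.82 and 7.71, *Fam107a*, an actin-binding protein of glia, which rose by 8.36, and *Ddn*, a postsynaptic protein, which rose by 7.99. Of the others, *Gpc2*, a glypican of young neurons, fell by 6.82, *Col2a1*, a collagen of embryonic tissue, fell by 6.46, and *Ebf3*, a factor of early neurons, fell by 6.13. Other genes were near the floor at a single age and are given as levels. At 1 month *Etnppl*, an enzyme of astrocytes, reached a median of 8.57, *Opalin*, of myelin, 8.73, *Igfn1* 8.88, *Myoc*, of astrocytes and meninges, 8.74, and *Neu4*, a sialidase of oligodendrocyte precursors, 8.44. In embryos their mean was within 0.5 of the floor. In the opposite direction *Dbx1* and *Fgf15*, of progenitor domains at the borders of the embryonic cortex, had embryonic medians of 7.48 and 9.13, and *Uncx* and *Foxa1*, of other brain regions, 8.49 and 7.67. At 1 month these 4 genes were within 0.7 of the floor by their medians.

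Gene span differed with direction. Spans came from the mm9 annotation for 95.5% of tested genes. Of 499 genes longer than 300 kb, 43.5% were called higher and 10.02% lower past 2-fold, against 16.6% and 14.5% of 4511 genes shorter than 10 kb. Between them, the share called higher past 2-fold was 17.0% from 10 to 30 kb, 19.3% from 30 to 100 kb and 26.3% from 100 to 300 kb. Long genes thus passed 2-fold upward at 1 month more often than short ones. These classes were also added after values were seen. Promoters were matched for 77.1% of the genes called higher and 79.4% of those called lower past 2-fold. The letters of the unmatched genes are unknown, so a comparison between these sets is void, and the background of tested genes given above, with 78.9% matched, carries the same limit.

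Levels at 6 and 12 months, with no test, show where some of these genes stood later. The mean of *Top2a* was 7.06 at 1 month, 5.53 at 6 months and 5.13 at 12 months. *Marcksl1* was at 11.54, 10.37 and 10.19, *Mobp* at 13.22, 12.26 and 12.38, and *Enpp6* at 9.22, 7.57 and 7.74. These 4 genes were lower at both later ages than at 1 month, and they were singled out after their values were seen. *Chd8* was at 11.05, 11.11 and 11.11.

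The same change was measured in WT mice, which share no samples with the heterozygous mice. Of 17285 genes tested in WT, 14821 (85.7%) were called and 5571 (32.2%) were called past 2-fold, and 5316 genes were called in both genotypes, 92.2% of the calls in heterozygous and 95.4% of those in WT mice, all in the same direction. Across 17074 genes tested in both, the changes correlated with r = 0.992 and a slope of 1.006, a description over genes that are not independent. The median decrease of the midbrain, hindbrain and spinal cord markers was larger in WT mice, −3.00 against −1.86, the largest gap of any list. WT embryos had list means of 4.85, 7.22 and 8.27 (lowest, median, highest), wider than the 5.02 to 6.84 of heterozygous embryos and overlapping with them, and the cause was not tested. The difference of the changes was tested gene by gene in 24 mice. Of 17249 genes, limma called 0 (0%), and 662 had an unadjusted p under 0.05, where 862 are expected by chance, but without WT embryo 6 they were 1511. The lowest adjp was 0.155, for *Hmgb3*, a chromatin protein of stem cells on chromosome X (68809093 to 68813851, mm9). *Hmgb3* was at 11.81, 11.97 and 12.03 in heterozygous embryos and at 8.24, 8.28 and 8.38 at 1 month, and it fell by 3.65. In WT mice the change was −3.32, a difference of −0.34. *Hmgb3* was called without heterozygous embryo 3 (−0.36), without heterozygous mouse 3 at 1 month (−0.35), without WT embryo 6 (−0.34), when samples were centred on the housekeeping list (−0.34) and with no filter (−0.34).

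**Figure D5:**
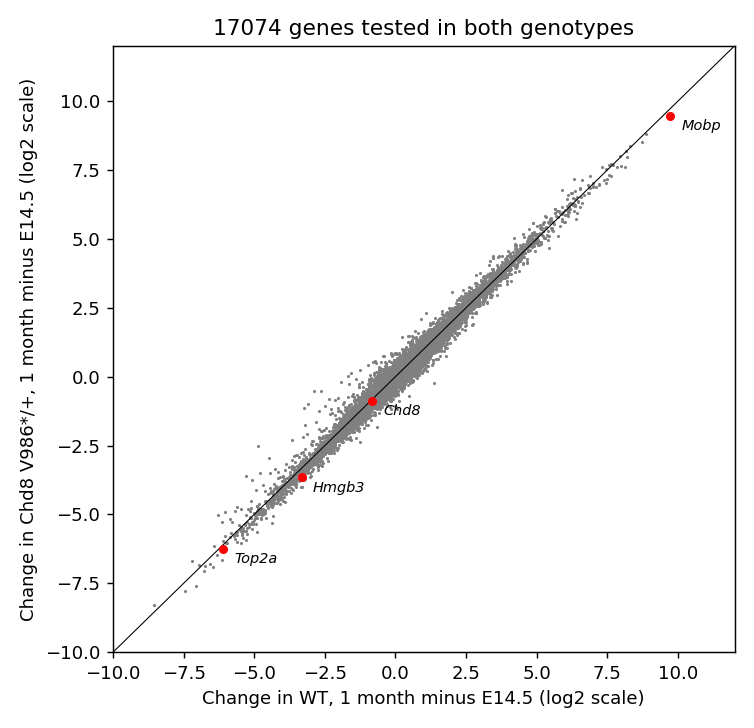
Change from E14.5 to 1 month (log2 scale) in WT mice, horizontal axis, and in *Chd8* V986*/+ mice, vertical axis, for 17074 genes tested in both genotypes. The points follow the line of equal change, with r = 0.992 across genes.

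The other genes with the lowest p for a more positive change in heterozygous mice were *Pop7*, a subunit of RNase P (difference 0.30), *Gpr22*, an orphan receptor (0.40), *Arhgap15*, a Rac regulator (0.61), *Klf9*, a factor induced by thyroid hormone and glucocorticoid (0.39), and *Bhlha15* (1.34). *Bhlha15* lay between 2.69 and 4.53 in all heterozygous mice, and its change of 0.53 was not called without mouse 1 at 1 month (0.32) or with quantile normalization (0.34). For a more negative change they were *Prr5l* (−0.52), *Lmod1* (−0.81), *Marcksl1* (−0.25) and *4933427I22Rik* (−1.57). *4933427I22Rik* lay between 2.66 and 4.04 in all heterozygous mice, a low level, and its change in them was called only with quantile normalization (−0.50). None passed the threshold with all mice. Without WT embryo 6, limma called 9 genes, *Gpr22*, *Prr5l* and *Hmgb3* among them. *Usp11*, a deubiquitinase, fell by 0.28 in heterozygous mice (difference −0.23, standard error 0.065), and *Wars2*, a mitochondrial tRNA synthetase, by 0.15 (difference 0.05). *Usp11* and *Wars2* were chosen with earlier results of these data known, and neither difference was called.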

How the data were processed

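Cortex RNA-seq of 12 heterozygous animals, 6 per age, was analysed, with 12 WT mice for the test of the difference. The authors aligned reads to mm9 with STAR 2.5.2b, quantified with Salmon 0.11.3 and deposited DESeq2 VST values on a log2 scale. The deposited means of replicates 1 to 3 and 4 to 6 over all samples agreed to 3.38e-14. An offset between these sets of replicates thus appears to have been taken out, which the tests below do not count. No label names the sets as batches. Read counts were not used here. Genes were tested with limma 3.58.1 (intensity trend) in R 4.3.3, adjusted p below 0.1, and against 2-fold with treat. Fits were tested on simulated data, where false calls without the size minimum exceeded the nominal share. False calls past 2-fold could not be assessed there, since the unchanged genes had no true change.

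The 42 gene lists and the members were chosen with earlier results of these data known, and lists were not tested as sets. Named genes were the 10 largest increases and decreases past 2-fold above the floor in all 12 mice without overlap of ages, the 5 highest per direction near the floor at one age, up to 2 members per list and direction past 2-fold, the paralog pairs, CHD genes, *Usp11* and *Wars2*, and the 5 lowest p per direction for the difference. Some genes that meet these rules are not reported here.

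Alternatives covered blocking, one fit of all samples, variance models, weights, scaling, filters, thresholds, a marker covariate, list summaries and leaving out each mouse. Leaving out the mice that stood apart, the promoter windows and the length and span classes were chosen after seeing the data. Python 3.11.15 was used.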

Additional observations from a re-analysis of the deposited data

Results flagged for a closer look

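In each age, the mouse furthest from the other 5 was looked for in 167 named genes and 42 list means of heterozygous mice. Of 418 groups of 6, 46 held a mouse far from its nearest neighbor (a gap of 0.633 of the group's range at the least). In independent groups chance alone gives about 1 in 20. These groups share the same mice, lists hold named genes and some values lie near the floor, so no excess over chance can be read from the count. The explanations were not tested.

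Embryo 1 had 15 of these. It was lowest for *Chd2* (10.80), *Chd3* (13.62), *Chd6* (11.51), *Chd8* (11.60), *Chd9* (11.23), *Asxl3* (10.56), *Atf6* (9.65), *Cplx3* (2.17), *Dnmt3a* (11.65), *Grin2a* (3.19), *Slc12a2* (10.81) and *Zmat3* (9.90). It was also lowest for the means of the CHD list (11.30), the BAF list (11.45) and the autism risk list (11.58). The same library had low values of long transcripts in general.

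Embryo 2 was lowest for *B2m* (8.07), *Col3a1* (10.74), *Mrc1* (7.49), *Myh11* (4.25) and the mural, fibroblast and meningeal list (8.66), and highest for *Herpud1* (9.60) and the cortex identity list (11.57). Embryo 3 was lowest for *Igfbpl1* (13.06) and highest for *Tph2* (4.88). Embryo 4 was highest for *Neu4* (2.72) and lowest for *Vip* (2.16), both near the floor.

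At 1 month, mouse 3 had 11. It was lowest for *Ebf3* (4.28), *Ly6a* (8.16), *Ly6c1* (9.02), *Ptgds* (11.36), the glycolysis list (12.00) and the interneuron list (9.32), and highest for *Cox6c* (11.98), *Fgf15* (2.93), *Shank3* (13.71), the ribosomal protein list (11.22) and the oxidative phosphorylation list (11.19). Mouse 1 was lowest for *Enpp6* (8.70) and the myelin list (11.03). Mouse 2 was highest for *Neu4* (8.68) and the S phase list (6.65). Mouse 5 was lowest for *Gtse1* (3.52) and *Neurog2* (3.74). Mouse 6 was highest for *Foxa1* (2.91), *Ntsr2* (11.59) and *Phlda3* (9.45).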

How the results depend on the processing

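Of 164 recomputed counts and *Chd8* changes, 157 kept their direction and stayed within 1.5 times of the reported count or on the same side of the threshold. Past 2-fold, the calls ranged from 3230 to 3322 higher and from 2391 to 2526 lower over the 12 fits that left out 1 heterozygous mouse, with 7428 to 7594 higher and 7213 to 7358 lower without the size minimum and a *Chd8* change of −0.93 to −0.85. Against a log2 change of 2, 1431 genes were called higher and 814 lower, as a stricter test must give. With quantile normalization, 2939 were higher and 2855 lower past 2-fold. With the replicate number as a block, limma called 3264 higher and 2443 lower past 2-fold. The same block gave 7488 higher and 7266 lower without the size minimum, and 0 for the difference. Same-numbered mice of the 2 ages correlated at −0.09 to −0.01 after removal of age means, and 0 of 6 embryos correlated best with their own number. An offset between sets of replicates appears to have been taken out before deposit. These correlations therefore cannot show whether same-numbered samples were handled together.

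The difference between genotypes called 1 gene when samples were centred on the housekeeping list and 1 with no filter, *Hmgb3* in both, and 0 to 9 genes over the 24 fits that left out 1 mouse. It called 0 without the 3 mice that stood apart, an alternative chosen after seeing the data. The cause was not tested. The *Chd8* difference turned to 0.0305 with quantile normalization and ranged from −0.108 to 0.000579 with 1 mouse left out, the latter without WT embryo 1, and *Chd3* turned to −0.43. Medians turned to 0.0335 for autism risk, 0.00725 for cholesterol synthesis and 0.36 for cortex identity as means, and to −0.10 for ER folding with quantile normalization. Small medians of the heat shock, cytoskeleton and housekeeping lists also turned, to −0.40, −0.30 and −0.06 with quantile normalization and to −0.03, −0.01 and −0.01 when centred on the housekeeping list. Of 3486 values of named genes, 3468 kept their direction and side of the threshold, 12 lost it, 5 gained it and 1 turned. Of 756 list values, 56 moved by over 1 SD between mice, 26 of them on taking the mean.

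VST values near the floor understate changes, and the depth of single genes is unknown. Age coincides with cell composition and dissection, which cannot be told apart here.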
